A study of Mus musculus with 24 samples.

Results

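The comparison described here sets MIN6 cells kept for 3 h in thapsigargin against the same kind of cells kept for 1 h, all of them labelled as carrying a control plasmid for GFP. Its members were chosen by name, as the columns of the raw count table for GFP at 3 h and at 1 h, and they are 8 of the 24 libraries of the series. MIN6 is a mouse insulinoma line that makes and secretes insulin. Cells of 4 libraries received 1 µM thapsigargin for 1 h and cells of 4 further libraries received it for 3 h, in medium with 22.2 mM glucose. A further 4 libraries of GFP cells given the vehicle DMSO, called 0 h, were used to say which of the changes between 1 h and 3 h continued, undid or followed a change already present at 1 h. The 12 libraries labelled EIF2A are labelled as cells with a plasmid for EIF2A-GFP and the same treatments, and they served as libraries that share none with the comparison. The labels name no promoter or dose of plasmid and no share of transfected cells. Vehicle was given at 0 h alone, and effects of thapsigargin and of elapsed time or handling cannot be told apart.

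Thapsigargin blocks the SERCA pump and empties the calcium store of the endoplasmic reticulum (ER). Misfolded protein in the ER is sensed by PERK, IRE1 and ATF6. PERK phosphorylates eIF2alpha, which lowers translation in general and raises translation of ATF4, and ATF4 with its target CHOP (gene Ddit3) switches on amino acid transporters, biosynthetic enzymes, tRNA synthetases and stress regulators. That branch is called the integrated stress response (ISR). IRE1 splices Xbp1 mRNA, and XBP1 and cleaved ATF6 act on genes of ER chaperones, folding enzymes and ER-associated degradation. Calcium released into the cytosol can also induce immediate early genes, which are transcribed without new protein synthesis. Beta cells carry a heavy load of proinsulin in the ER and are known to be sensitive to such stress.

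The 8 libraries held 16727921 to 21537325 counts in genes, and the 0 h libraries 17381341 to 22222701. Levels are counts per 1000000 (CPM) after TMM scaling, in the order of replicates 1 to 4. Replicate 1 stood apart at both times. Its first principal component scores were -75.4 and -70.1 against 22.0 to 26.5 in the other 6 libraries, on an axis with 73.5% of the variance, while the second axis (16.8%) separated 1 h from 3 h. Eif2a, the gene that the other plasmid carries, was at 363, 92.5, 90.6 and 95.1 CPM at 1 h and 360.4, 102, 99.6 and 90.98 CPM at 3 h with all 24 libraries on 1 TMM scale, so replicate 1 lay far above the rest. In the libraries labelled EIF2A it was at 96.7, 200.5, 188 and 176 CPM at 1 h and 104.6, 209.6, 194 and 164 CPM at 3 h on that scale, and replicate 1 lay below the others. By this gene the libraries of replicate 1 go against their labels, so the groups are called "labelled GFP" throughout, and main counts are given with and without replicate 1. The labels do not say that replicates are separate cultures, so p-values measure the spread between these libraries, which may be technical. Beta cell markers summed to 60000 to 96100 CPM at 1 h and 37300 to 62900 CPM at 3 h over 10 genes, and the 8 alpha cell markers to 1730 to 1860 CPM and 1130 to 1210 CPM. The 10 acinar markers came to at most 1.12 CPM at either time, with Prss2 and Rbpjl at 0. The 8 mesenchymal, 6 endothelial and 8 macrophage markers came to at most 8.81, 8.88 and 68.2 CPM, and Hhex, a delta cell marker, was at 0. The 7 duct markers reached 1290 CPM, and their part in the results was not tested. In bulk RNA, fewer cells of a type and less RNA per cell cannot be told apart.

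Between 1 h and 3 h the transcriptome moved broadly and mostly by small steps. Of 13540 genes tested, 3655 were higher at 3 h (27%) and 3778 lower (27.9%) at an adjusted p under 0.05 in edgeR's quasi-likelihood test with the replicate number as a block. A change of at least 1.5-fold was called for 494 genes upward (3.65%) and 411 downward (3.04%), and of at least 2-fold for 159 and 55. The median log2 fold change over all genes was -0.000127 and the median standard error (SE) 0.060. Values below are log2 fold changes of 3 h against 1 h with their SE unless another measure is named, and "rose", "fell" and "called" stand for an adjusted p under 0.05. All 4 replicates moved in the same direction for 60.5% of genes, and for 22.7% the 4 libraries of one time did not overlap the 4 of the other. Without replicate 1, 3907 genes rose (28.8%) and 3939 fell (29%). Without the block the spread between replicate 1 and the others entered the error, and 1484 of the 13540 genes rose and 1388 fell. Counts of lists without the block, given below, stand beside these. List counts with the block stand beside the 27% higher and 27.9% lower of all genes. Those without replicate 1 stand beside 28.8% and 29%, and those in the libraries labelled EIF2A beside 25% and 24.8%. With replicate 1 left out and no block the counts were 3535 and 3604. Of 166 genes named here and called, 56 were not called without the block, among them Hspa5, Ins1, Egr1, Nr4a1, Jun, Xbp1 and Atf4 (adjusted p 0.0577 to 0.826). Scaling by library totals in place of TMM moved the median of all genes to 0.111 and gave 5589 higher and 2283 lower, so that 71% of the called genes were higher in place of 49.2%. Directions below are relative to the median gene.

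The leading rises belonged to linker and core histones, ISR genes and single genes of other kinds. Among called genes of at least 5 CPM that moved the same way in all 4 replicates, the 12 highest were Olfr1372-ps1 (2.86 ± 0.32), D730045A05Rik (2.49 ± 0.14), Slc7a11, Hist1h1e, Hist1h2ac, Trib3, Hist1h1d, Fam13c (1.97 ± 0.15), Atf3, Hist1h4i, Hist1h3i and Hist1h1b. The 12 lowest included Slc16a3, which exports lactate (-1.73 ± 0.35), Lfng, a Notch glycosyltransferase (-1.52 ± 0.12), C2cd4a (-1.43 ± 0.086), S100a11 (-1.34 ± 0.10), the tubulin gene Tuba1c (-1.34 ± 0.15) and Tnfsf9 (-1.33 ± 0.12). They also held Ndufa4, Tmem27, a beta cell membrane protein (-1.17 ± 0.049), the beta cell peptide gene Ucn3, Npnt, Ffar3 (-1.14 ± 0.11) and Lgals3bp (-1.06 ± 0.13). Slc16a3 was at 352, 61.6, 63.8 and 77.1 CPM at 1 h and 151, 13.5, 14.5 and 17.97 CPM at 3 h, falling in each replicate from a level in replicate 1 that lay far above the rest. C2cd4a was at 43.1, 44.7, 49.6 and 55.9 CPM at 1 h and 17.1, 15.7, 16.3 and 22.6 CPM at 3 h, with no overlap between the times.

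**Figure D1:**
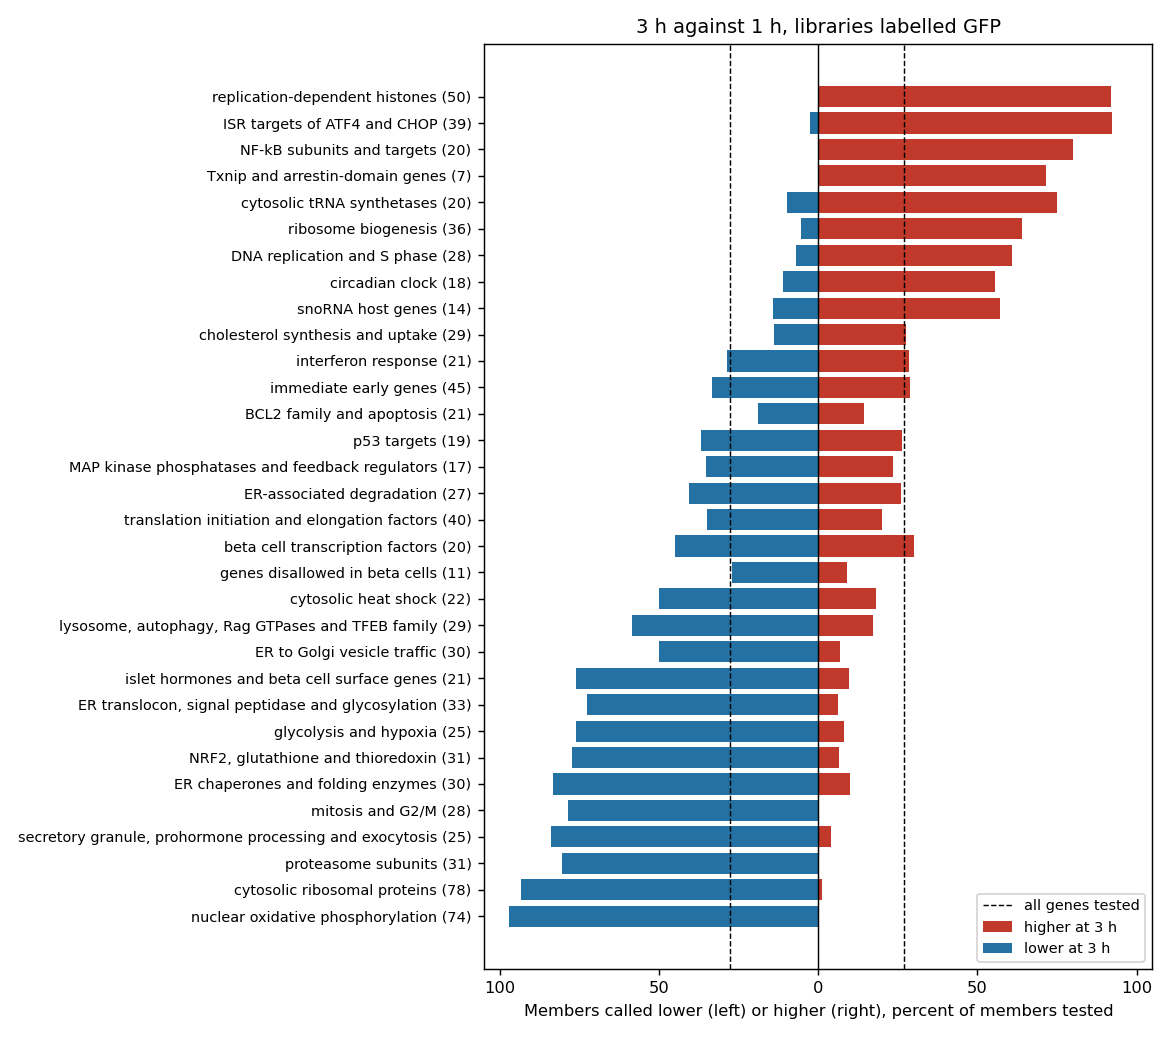
Percent of the tested members of each gene list (number in brackets) called lower (blue, left) or higher (red, right) at 3 h than at 1 h in the libraries labelled GFP, with dashed lines at the 27% and 27.9% of all genes. Histones and ISR targets lie at the top with over 90% higher, and nuclear genes of oxidative phosphorylation and ribosomal proteins at the bottom with over 90% lower.

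The 3 times were then joined to say what each early change did later. At 1 h 3447 genes were higher (25.5%) and 3319 lower (24.5%) than at 0 h. Such a gene was called growing when it moved again in the same direction by 3 h and reverting when it moved back. It was called held when it was not called at 3 h against 1 h and the 95% interval lay within 0.25 log2 of 0. A gene was late when its interval at 1 h lay within 0.25 log2 of 0 and it was called from 1 h to 3 h. The growing genes numbered 1797 upward and 1788 downward. Reversion took 554 genes that had risen and 250 that had fallen. A total of 771 and 954 genes were held, and 909 rose and 960 fell late. The later step could not be resolved for 325 and 327 further early genes, and the early part of 699 and 476 later ones. These comparisons share the 1 h libraries, and an error there moves both steps in opposite directions, so the classes are a description without a test.

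**Figure D2:**
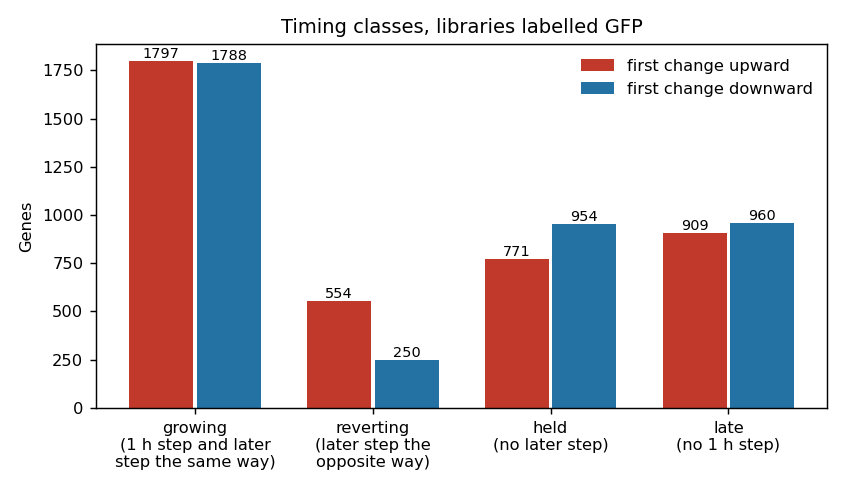
Number of genes in each timing class in the libraries labelled GFP, by the direction of the first change (red upward, blue downward). Growing genes number 1797 and 1788, and reverting genes 554 and 250.

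Of the 3447 early rises 554 came back, and of the 3319 early falls 250. Of the 554 genes that rose and reverted, 222 were back at their 0 h level within 0.25 log2 at 3 h, 131 were still above it, 126 were below it and 75 could not be placed. Among the 250 that fell and reverted, these numbers were 162, 25, 38 and 25. Without replicate 1 there were 730 and 431 reverting genes, of which 525 and 226 were the same genes. Without the block there were 99 and 24.

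The libraries labelled EIF2A gave a view of the same classes in cells that share no library with them. There, 71.9% of the genes that rose and reverted under the GFP label were lower at 3 h than at 1 h (397 of 552 tested), beside 24.8% of all genes in those libraries. Of the genes that fell and reverted, 67.7% were higher (168 of 248), beside 25% of all genes. Growing genes went on in the same direction for 84.1% and 81.7%, late ones for 71.7% and 76.9%. Held genes were called higher for 13.7% and lower for 4.28% of those held up, and for 7.02% and 10.5% of those held down. Early genes were also picked in the EIF2A libraries and read out in GFP. At 1 h against 0 h 20.9% of genes were higher there and 21.3% lower. Of 2751 of the higher genes tested under both labels, 53.3% rose from 1 h to 3 h in GFP and 16.4% fell, with a median of 0.158. Of 2794 of the lower ones, 53.8% fell further and 8.27% rose, with a median of -0.159. Over all genes tested in GFP 27% rose and 27.9% fell, with a median of -0.000127. For early changes of at least 1.5-fold (3.37% and 0.92% of genes), 59% of 441 genes rose further and 11.6% fell, and 54.3% of 116 genes fell further and 4.31% rose. Without replicate 1 the shares that turned back were 21.9% of early rises and 14.2% of early falls. Of all genes 29% fell and 28.8% rose there.

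**Figure D3:**
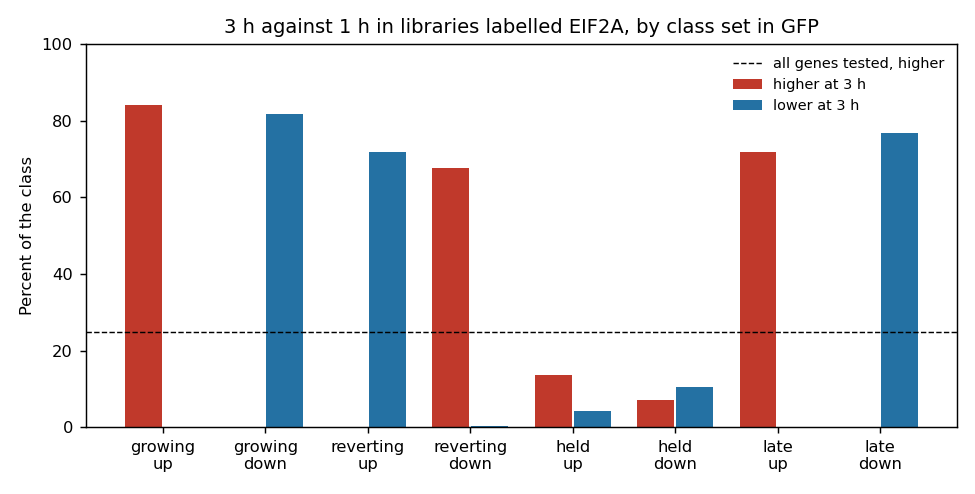
Percent of the genes of each class, set in the libraries labelled GFP, that were called higher (red) or lower (blue) at 3 h than at 1 h in the libraries labelled EIF2A. The dashed line marks the 25% of all genes called higher there, and the lower bar of genes that reverted after a rise stands at 71.9%.

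ISR targets of ATF4 and CHOP rose nearly as a whole. Of 39 tested members 36 rose, 30 of them by at least 1.5-fold, and 1 fell, with a median of 0.921. Without replicate 1, 37 rose and none fell, and without the block 32 rose and none fell. In the libraries labelled EIF2A, 34 of 38 rose and none fell. At 1 h 11 members had been called higher than at 0 h and 3 lower, with a median of 0.211. Without replicate 1, 24 members counted as growing, against 11 with all 4 replicates.

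ATF4 binds composite sites of C/EBP and ATF type, and the letters TGATGNAA, read on both strands, are the core of such a site. RefSeq promoters (GRCm38.p6, 250 bases before the start to 50 after it) matched by symbol for 10298 of the 13540 genes, and a gene counted when any of its windows held the letters, also where matches of different motifs share bases. The letters stood in 2.72% of all genes with a promoter, in 10 of 32 ISR targets (31.2%), in 5 of 12 tRNA synthetase genes (41.7%) and in 1 of 23 ER chaperone genes (4.35%). Among genes that rose by at least 1.5-fold they were found in 34 of 337 (10.1%), and among genes that fell by as much in 5 of 285 (1.75%). A match describes letters and is not evidence of binding. The stretches below are the 6 ISR genes with the smallest p that have a match before the start, shown because these genes rose in the later step. They run 5′ to 3′ along the gene's strand, and capitals mark the match or its reverse complement.
Nupr1, chr7:126625548-126625605, minus strand: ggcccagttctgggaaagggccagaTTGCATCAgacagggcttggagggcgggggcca
Fgf21, chr7:45615597-45615654, minus strand: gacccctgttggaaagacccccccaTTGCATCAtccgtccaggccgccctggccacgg
Slc7a11, chr3:50443628-50443704, minus strand: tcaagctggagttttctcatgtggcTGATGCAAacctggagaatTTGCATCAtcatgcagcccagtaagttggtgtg
Atf3, chr1:191183411-191183468, minus strand: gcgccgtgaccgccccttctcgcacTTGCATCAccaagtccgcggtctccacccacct
Jdp2, chr12:85599358-85599415, plus strand: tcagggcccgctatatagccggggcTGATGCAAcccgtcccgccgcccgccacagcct
Chac1, chr2:119351024-119351081, plus strand: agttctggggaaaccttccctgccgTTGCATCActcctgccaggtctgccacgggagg

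The transcription factors of the branch differed in their timing. Atf4 itself, whose control is mainly by translation, had risen by 0.59 at 1 h and added 0.21 ± 0.063 by 3 h (adjusted p = 0.0107). Ddit3, which codes for CHOP, was at 88.7, 56.9, 56.1 and 59.1 CPM at 0 h, 129.7, 159.5, 160.1 and 139 CPM at 1 h and 297, 247, 249 and 267 CPM at 3 h. It rose in both steps, by 1.20 and then by 0.84 ± 0.15, and no library at 3 h was as low as any at 1 h. Atf3, a repressor and activator induced by ATF4, was at 31.6, 8.33, 9.85 and 10.2 CPM at 0 h, 45.4, 34.8, 36.1 and 36.9 CPM at 1 h and 233, 116, 119.8 and 122 CPM at 3 h. Its step of 1.90 ± 0.21 (adjusted p = 0.000303) came on top of 1.48 at 1 h, with replicate 1 highest at each time. Jdp2, a related factor (1.76 ± 0.21), Cebpb (1.21 ± 0.27) and Nupr1 also rose. Nupr1, a small chromatin protein, was at 32.9, 56.8, 56.2 and 54.5 CPM at 0 h, 27.5, 47.7, 47.6 and 45.7 CPM at 1 h and 46.8, 93.1, 92.6 and 83.2 CPM at 3 h. It had fallen by 1 h (-0.25) and passed its 0 h level by 3 h (0.65 against 0 h). Atf5 fell and then rose (-0.45, then 0.51 ± 0.14) with 0.062 against 0 h, not called. Without replicate 1 the later step of Atf5 was 0.67, and its 0.23 against 0 h was called.

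Regulators, transporters and enzymes of the ISR rose as well. Trib3, a pseudokinase that holds back ATF4 and AKT (chromosome 2, 152337422 to 152344032 on GRCm38), was at 68.5, 23.6, 24.3 and 23.5 CPM at 0 h, 81.2, 61.9, 61.2 and 56.7 CPM at 1 h and 310.1, 227, 239 and 256 CPM at 3 h. Its step of 2.00 ± 0.22 (adjusted p = 0.000286) was larger than the 0.99 of the first hour, and no library at 3 h was as low as any at 1 h. Chac1, which degrades glutathione, rose by 1.45 ± 0.23 from an early rise of 1.53. Sesn2, an inhibitor of mTORC1, rose by 1.44 ± 0.10, and Ppp1r15a, which recruits the phosphatase of eIF2alpha and so closes the loop, by 1.17 ± 0.053 (adjusted p = 6.65e-13). The cystine importer Slc7a11 was at 9.004, 9.64, 8.85 and 8.40 CPM at 1 h and 31.5, 50.1, 47.8 and 43.1 CPM at 3 h, a step of 2.26 ± 0.19 after 0.54 at 1 h that was not called, though it was without replicate 1 (0.72). Slc3a2, its partner chain, rose by 0.92 ± 0.039 and the glycine transporter Slc6a9 by 1.57 ± 0.25 (1.86 without replicate 1). Enzymes of serine, folate and asparagine synthesis followed, with Mthfd2 at 0.86 ± 0.10, Psat1 at 0.69 ± 0.11 and Asns at 0.54 ± 0.12. None of these 3 was called at 1 h, but without replicate 1 Mthfd2 (0.34) and Asns (0.32) were. Fgf21, a secreted stress hormone, was at 1.41, 1.05, 0.977 and 1.13 CPM at 1 h and 2.58, 3.91, 3.97 and 4.25 CPM at 3 h, so it stayed low even at the step of 1.68 ± 0.19. The 1 member that fell was Ero1l, an ER oxidase and CHOP target (-0.18, then -0.16 ± 0.063), and its later step was not called without replicate 1 (-0.044).

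Cytosolic tRNA synthetases, which charge tRNAs and are ATF4 targets in part, rose for 15 of 20 members and fell for 2, with a median of 0.304. Of all genes 27% rose and 27.9% fell. Their early change was of like size, with a median of 0.359 at 1 h, and 14 members were growing. Tars (0.75 ± 0.056), Yars (0.65 ± 0.054), Iars (0.81 ± 0.11) and Nars (0.73 ± 0.081) were among them. Kars and Qars, by contrast, had risen at 1 h (0.26 and 0.35) and fell afterwards (-0.18 ± 0.039 and -0.15 ± 0.057). In the libraries labelled EIF2A 13 of 20 rose and 2 fell.

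**Figure D4:**
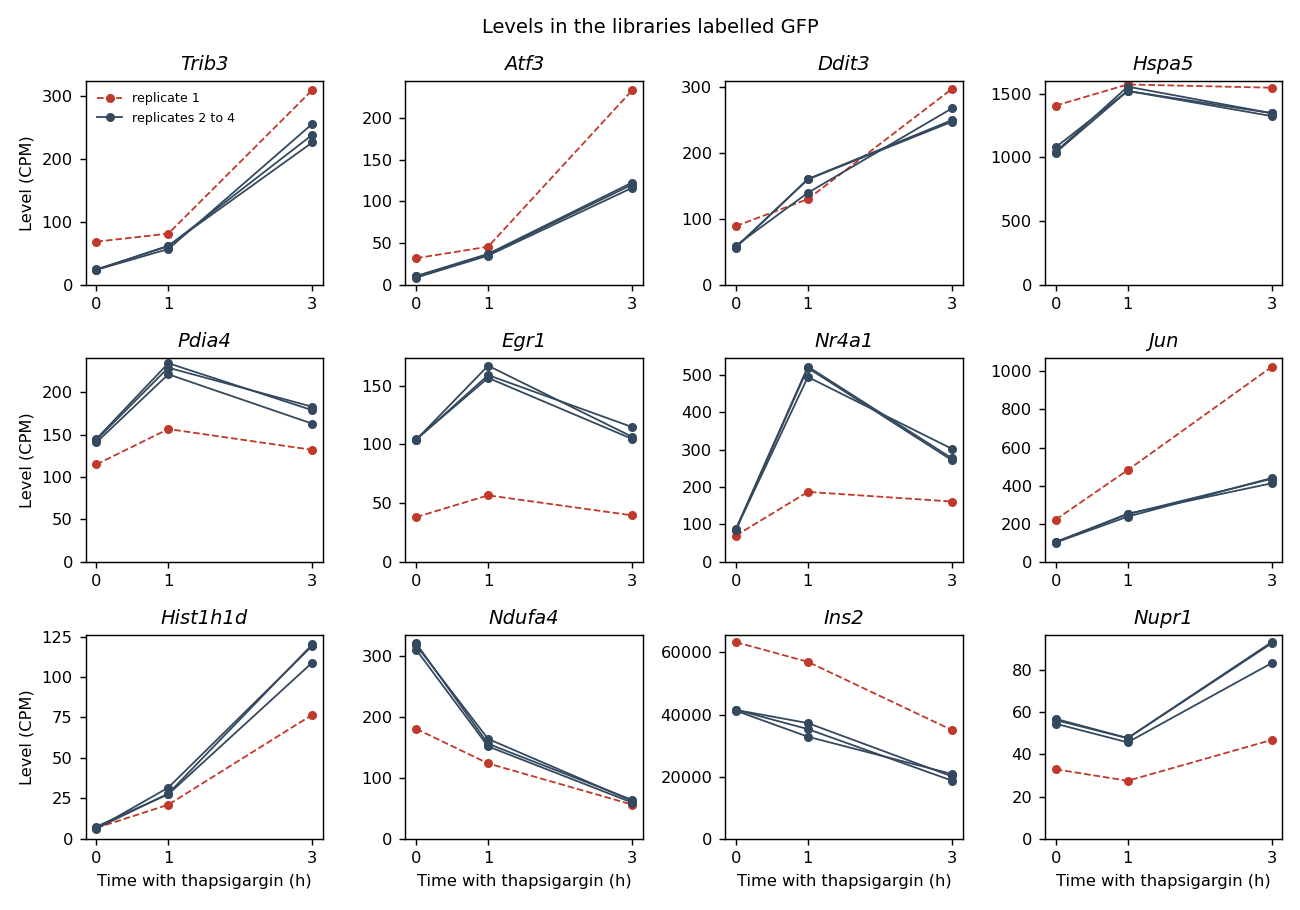
Levels in CPM (y axes start at 0) of 12 genes in each library labelled GFP at 0, 1 and 3 h, with a line per replicate number and replicate 1 dashed in red. Trib3 climbs to 227 to 310 CPM at 3 h, Hspa5, Pdia4, Egr1 and Nr4a1 peak at 1 h, and Ndufa4 and Ins2 decline throughout.

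ER chaperones and folding enzymes took the opposite course to the ISR genes. Of 30 members 25 fell from 1 h to 3 h and 3 rose, with a median of -0.277. At 1 h 17 had been above 0 h, with a median of 0.161, and 15 of these reverted, 6 back to the 0 h level, 7 in part and 2 to below it. Without replicate 1, 25 fell and 3 rose, and 17 reverted. Without the block 10 fell, 1 rose and 3 reverted. In the libraries labelled EIF2A 24 of 30 fell and 2 rose, and 11 were higher at 1 h and then lower.

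Chaperone promoters are known for the ER stress response element, in which CCAAT and CCACG stand 9 bases apart and bind NF-Y and ATF6 or XBP1. Searched on both strands of the same windows, these letters stood in 17 genes of 10298 (0.165%), in 7 of 23 chaperone genes with a promoter (30.4%) and in none of 32 ISR targets. Among genes that rose at 1 h and reverted they stood in 6 of 425 (1.41%), and chaperones are members of that class. The 6 chaperone genes with the smallest p that have a match before the start are shown because 5 of them rose and came back, while Dnajc3 fell with no early change called, though without replicate 1 it had one (0.12). Capitals mark the match or its reverse complement.
Pdia6, chr12:17266466-17266534, plus strand: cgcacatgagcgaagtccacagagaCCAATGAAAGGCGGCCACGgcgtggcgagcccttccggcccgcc
Calr, chr8:84847050-84847118, minus strand: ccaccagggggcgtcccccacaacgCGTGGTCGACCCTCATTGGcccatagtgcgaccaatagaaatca
Dnajc3, chr14:118937802-118937870, plus strand: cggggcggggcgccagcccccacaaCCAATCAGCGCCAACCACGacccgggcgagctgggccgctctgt
Canx, chr11:50325775-50325843, minus strand: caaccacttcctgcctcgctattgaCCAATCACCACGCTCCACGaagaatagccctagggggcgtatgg
Hsp90b1, chr10:86705613-86705681, minus strand: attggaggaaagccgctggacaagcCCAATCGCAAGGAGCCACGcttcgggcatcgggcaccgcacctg
Hspa5, chr2:34772000-34772068, plus strand: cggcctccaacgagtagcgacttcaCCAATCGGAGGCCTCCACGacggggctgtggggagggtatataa

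Hspa5, which codes for BiP, the main ER chaperone and a sensor of folding load (chromosome 2, 34771970 to 34777547), was at 1407, 1079, 1038 and 1043 CPM at 0 h, 1574, 1523, 1522 and 1556 CPM at 1 h and 1548, 1325, 1348 and 1348 CPM at 3 h. It had risen by 0.45 at 1 h and then fell (-0.15 ± 0.051, adjusted p = 0.0162) to a level still 0.29 above 0 h. Replicate 1 hardly moved in this step, and the value without it was -0.20. Hsp90b1, the HSP90 of the ER, was at 1987, 2152, 2072 and 2061 CPM at 1 h and 1861, 1928, 1891 and 1716 CPM at 3 h, with all libraries at 3 h below all at 1 h (-0.16 ± 0.043). The disulfide isomerase Pdia4 was at 115, 145, 144 and 141 CPM at 0 h, 157, 235, 229 and 221 CPM at 1 h and 132, 179, 183 and 163 CPM at 3 h, a rise of 0.62 followed by -0.35 ± 0.042. Pdia3 (-0.36 ± 0.038), Pdia5 (-0.41 ± 0.042), Pdia6 (-0.35 ± 0.047) and Hyou1, a nucleotide exchange factor of BiP (-0.34 ± 0.041), fell after rises of 0.52, 0.62, 0.55 and 0.31. The calcium-binding lectins Calr and Canx, which hold glycoproteins, did so too (-0.31 ± 0.042 and -0.17 ± 0.037). Ppib, a prolyl isomerase, showed no early change (0.0029) and fell late (-0.64 ± 0.041), at 219, 219.6, 229 and 242 CPM at 1 h and 137, 141, 141 and 165 CPM at 3 h with no overlap. The 3 members that rose were Xbp1 (0.34 ± 0.047), Atf6 (0.37 ± 0.052) and the BiP cochaperone Dnajb9 (0.15 ± 0.061), of which Xbp1 and Atf6 code for factors that bind these elements. Counts per gene do not tell spliced from unspliced Xbp1 mRNA.

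Other ER genes moved less uniformly or without an early peak. Of 33 genes for the translocon, signal peptidase and glycosylation, 24 fell and 2 rose (median -0.229), and 15 of them had been falling since 1 h. Sec61b, a subunit of the translocon, fell in both steps (-0.36, then -0.45 ± 0.040), and so did Dad1 of the oligosaccharyl transferase (-0.37, then -0.54 ± 0.039). Without the block 15 fell and none rose. ER-associated degradation was split, with 7 of 27 members higher and 11 lower, beside 27% and 27.9% of all genes. Its median of -0.0613 was 0.0503 with library totals. Herpud1, an ER membrane protein of that pathway with ATF6 and ATF4 input, rose in both steps (0.87, then 0.59 ± 0.15), while Edem1, a lectin that picks glycoproteins for disposal, fell in both (-0.38, then -0.41 ± 0.039). Of 7 listed substrates of decay by IRE1, 3 were tested and 1 fell, Hgsnat (-0.31 ± 0.058). Without replicate 1, 2 fell, and without the block none did. Bloc1s1, another substrate, was at -0.84 at 1 h, called, and at -0.41 ± 0.21 in the later step, not called, though called without replicate 1 (-0.48).

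**Figure D5:**
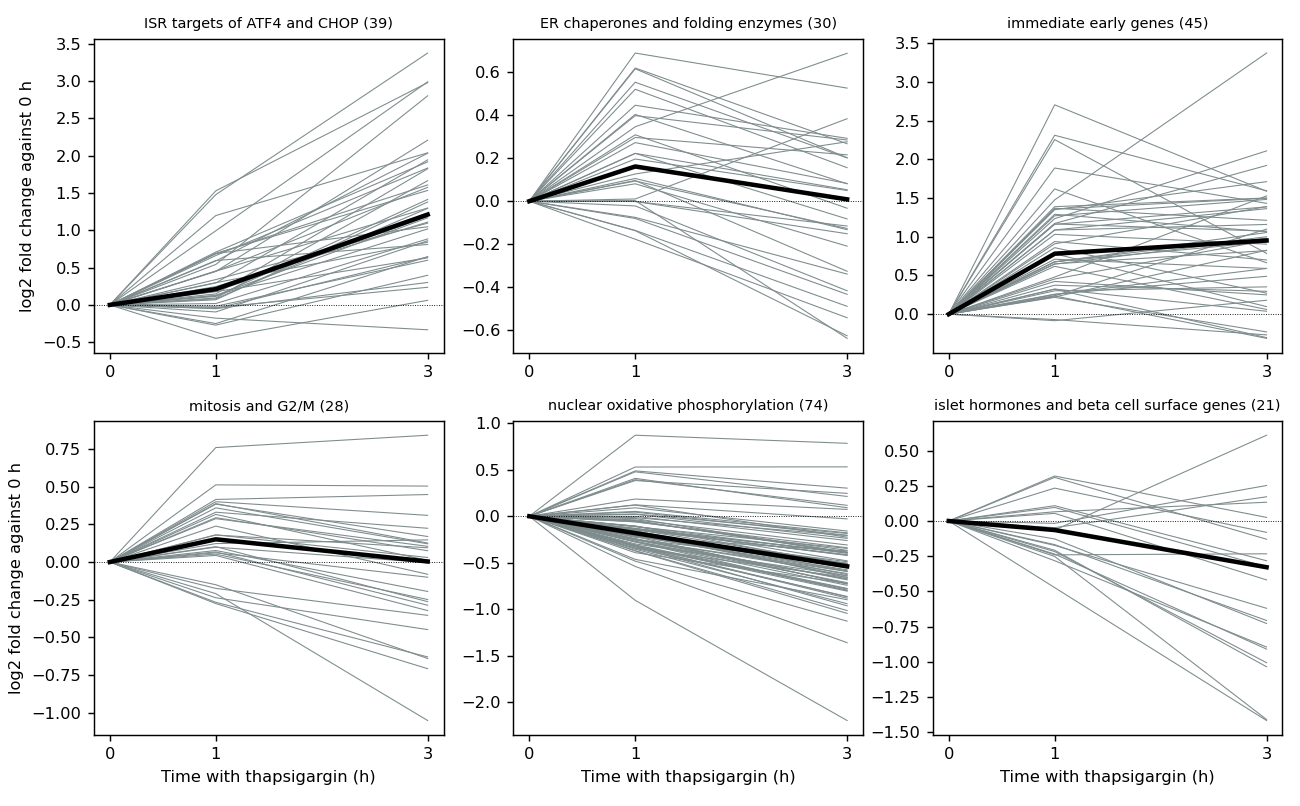
Log2 fold change against 0 h at 1 h and 3 h in the libraries labelled GFP, with a grey line for each tested member of 6 lists and their median in black; the y axes differ between panels. ISR targets climb mainly after 1 h, ER chaperones and G2/M genes peak at 1 h, and genes of oxidative phosphorylation decline in both steps.

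Immediate early genes moved both ways after 1 h. At 1 h 38 of 45 had risen (median 0.781) and none had fallen. From 1 h to 3 h 13 rose and 15 fell, beside 27% and 27.9% of all genes, and 12 of the early rises reverted while 10 grew. Without replicate 1, 16 of 46 rose and 21 fell, beside 28.8% and 29% of all genes, and 20 reverted. Without the block 6 rose and 7 fell, beside 1484 and 1388 of all 13540 genes. In the libraries labelled EIF2A 8 of 44 rose and 7 fell, beside 25% and 24.8% of all genes there.

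The EGR factors, zinc finger proteins downstream of ERK and calcium, were among the members that fell. Egr1 was at 38.02, 104, 104 and 104 CPM at 0 h, 56.6, 159, 157 and 167 CPM at 1 h and 39.5, 115, 104.7 and 107 CPM at 3 h, a rise of 0.62 and then a step of -0.56 ± 0.041 (adjusted p = 8.75e-10) back to the 0 h level. Egr2 (2.70, then -1.12 ± 0.20) and Egr4 (1.62, then -0.95 ± 0.29) fell from their early rises. Egr3 was at 0.855, 1.33, 1.54 and 1.75 CPM at 1 h and 0.896, 0.282, 0.279 and 0.526 CPM at 3 h, low counts at which replicate 1 did not move while the others fell (-1.47 ± 0.55, and -2.05 without replicate 1). The nuclear receptor gene Nr4a1 was at 69.9, 84.7, 87.5 and 86.2 CPM at 0 h, 187, 519, 522 and 495 CPM at 1 h and 161, 272, 277 and 302 CPM at 3 h, so the step of -0.72 ± 0.19 took it down only in part from a rise of 2.31. Zfp36, which promotes decay of AU-rich mRNAs, fell (-0.68 ± 0.090), and so did Ier3 (-0.59 ± 0.070). Fosb was at -0.46 ± 0.29 and was not called, though without replicate 1 it was (-0.87).

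Members of the AP-1 and MYC families were among the growing ones. Jun was at 221, 101, 104 and 101 CPM at 0 h, 481, 252, 249.6 and 237 CPM at 1 h and 1023, 412, 435 and 439.6 CPM at 3 h, with replicate 1 above the others at each time and a rise in all 4 (1.23, then 0.88 ± 0.046, adjusted p = 8.91e-12). Myc, which had risen by 0.48, rose by 1.05 ± 0.078 and was at 22.9, 8.58, 9.41 and 8.61 CPM at 1 h and 39.6, 19.96, 20.95 and 19.2 CPM at 3 h. Junb (0.48 ± 0.055), Klf10 (0.75 ± 0.17) and Nr4a2 (0.36 ± 0.10) also grew. Fosl2, a FOS relative, held its early rise of 1.03 at -0.13 ± 0.053 and counted as reverting without replicate 1. Of 17 feedback regulators of MAP kinases 4 were higher and 6 lower, beside 27% and 27.9% of all genes, with 5 reverting and a median of -0.0243 that was 0.0862 with library totals. The ERK phosphatase Dusp6 was at 7.64, 26.2, 27.3 and 25.6 CPM at 0 h, 13.5, 50.4, 50.6 and 49.3 CPM at 1 h and 12.8, 36.7, 37.5 and 33.4 CPM at 3 h and came back in part (-0.42 ± 0.061), as did Dusp5 (-0.53 ± 0.091). Spry4, an inhibitor of receptor signalling to ERK, also came back (-0.73 ± 0.077). Dusp8 (1.16 ± 0.10) and Dusp16 (1.44 ± 0.16), phosphatases of JNK and p38, rose in all 4 replicates. Without the block 2 feedback regulators rose and 2 fell, beside 1484 and 1388 of all 13540 genes.

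NF-kB subunits and targets rose for 16 of 20 members and fell for none, beside 27% and 27.9% of all genes, with a median of 0.464. Without replicate 1, 17 rose, without the block 10, and in the libraries labelled EIF2A 14 of 19 rose. Relb, a subunit of the noncanonical pathway, was at 30.6, 23.6, 24.1 and 20.4 CPM at 1 h and 52.7, 57.6, 59.9 and 61.5 CPM at 3 h, with no overlap (1.25 ± 0.18, adjusted p = 0.000923). The inhibitors Nfkbia (0.65 ± 0.056) and Tnfaip3 (0.95 ± 0.11), the subunit Nfkb2 (0.58 ± 0.061), the E3 ligase Birc3 (0.70 ± 0.15) and the adhesion molecule Icam1 (1.24 ± 0.39, and 1.98 without replicate 1) rose as well. The 8 macrophage markers summed to 33.9 to 68.2 CPM at 1 h and 20 to 49.9 CPM at 3 h. A part of such cells in the NF-kB counts was not tested.

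In the BCL2 family and apoptosis list 3 of 21 members rose and 4 fell, beside 27% and 27.9% of all genes. Hrk, a BH3-only activator of apoptosis, was at 0.755, 0.498, 0.566 and 0.309 CPM at 1 h and 2.52, 4.10, 2.74 and 4.78 CPM at 3 h, low levels with no overlap and a step of 2.71 ± 0.30 (adjusted p = 1.05e-06). Bbc3, which codes for PUMA, was at 17.00, 21.3, 22.4 and 22.7 CPM at 1 h and 43.3, 41.2, 44.8 and 47.8 CPM at 3 h and grew from 0.50 by 1.09 ± 0.061. Bax (-0.19 ± 0.040) and Bok (-0.36 ± 0.058) fell. Of 19 p53 targets 5 rose and 7 fell, beside the same shares of all genes, with Bbc3 and Trp53inp1 (0.65 ± 0.066) among the rises. The median of these targets was -0.0454, and 0.066 with library totals.

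Insulin mRNA fell mainly in the later step. Ins2 was at 63291, 41526, 41473 and 41221 CPM at 0 h, 56959, 35302, 37237 and 32854 CPM at 1 h and 34996, 18727, 20083 and 20863 CPM at 3 h, and Ins1 at 14065, 6926, 7245 and 6977 CPM at 1 h and 8511, 3596, 3925 and 4105 CPM at 3 h. Both had fallen slightly by 1 h (-0.22 and -0.21) and fell further by 3 h (-0.79 ± 0.049 and -0.83 ± 0.048, adjusted p = 7.27e-11 and 3.68e-11). Replicate 1 was higher than the others at each time, and its 3 h library lay within the range of the 1 h libraries for both Ins2 and Ins1. Among 21 hormone and surface genes 16 fell and 2 rose (median -0.44), with G6pc2, the islet glucose phosphatase (-0.94 ± 0.092), the glucose transporter Slc2a2 (-0.68 ± 0.064), Iapp, the amyloid peptide (-0.45 ± 0.038), and Gcg (-0.60 ± 0.037) lower. Ucn3 was at 0.302, 17.00, 16.7 and 16.3 CPM at 1 h and 0.0560, 6.83, 7.43 and 8.27 CPM at 3 h, near 0 in replicate 1 and down in each of the others (-1.16 ± 0.093). Without replicate 1, 16 of 22 fell and 2 rose, without the block 9 of 21 fell and none rose, and in the libraries labelled EIF2A 14 of 20 fell.

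Genes of the secretory granule were lower for 21 of 25 members and higher for 1 (median -0.32), and 6 of them came down from an early rise. Pcsk1, the convertase that opens proinsulin processing, was at 272, 393, 391 and 399 CPM at 0 h, 422, 668, 648 and 676 CPM at 1 h and 339, 442, 441 and 449.5 CPM at 3 h, a rise of 0.72 followed by -0.51 ± 0.042. Its partner Pcsk2 (0.71, then -0.42 ± 0.046) and the granins Chgb (0.60, then -0.33 ± 0.040) and Scg2 (0.27, then -0.69 ± 0.046) took the same course, with Scg2 ending below 0 h. Vgf (-0.55 ± 0.044) and Scg5 (-0.39 ± 0.035), a chaperone of PCSK2, fell without an early change. Without replicate 1, 22 fell and 1 rose, and without the block 8 fell.

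Among 20 beta cell transcription factors 9 fell and 6 rose, beside 27.9% and 27% of all genes, and 5 early rises reverted. Foxa2 was at 89.3, 107, 114 and 112 CPM at 0 h, 134, 174, 173 and 176 CPM at 1 h and 128, 120.5, 120.2 and 126 CPM at 3 h, a rise in all 4 replicates that came back in replicates 2 to 4 and hardly in replicate 1 (-0.40 ± 0.064, and -0.51 without it). Pdx1, the master regulator of insulin transcription, was at 359, 318, 323 and 339 CPM at 1 h and 309, 231, 248 and 276 CPM at 3 h and ended below 0 h (-0.34 ± 0.043, then -0.20 against 0 h). Isl1 (-0.49 ± 0.043), Neurod1 (-0.31 ± 0.040) and Nkx2-2 (-0.33 ± 0.040), which direct islet development and function, fell. Mafa, an activator of the insulin genes, was at -0.16 ± 0.11 with a 95% interval from -0.42 to 0.11, and was not called. Without the block 5 fell and 1 rose. Without replicate 1, 9 fell and 5 rose, and in the libraries labelled EIF2A 8 fell and 7 rose. The called genes named here are all among those that fell, so they do not stand for the whole list.

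Genes of oxidative phosphorylation and ribosomal proteins fell in small steps. Of 74 nuclear genes of oxidative phosphorylation 72 fell and none rose (median -0.346), and 49 had been falling since 1 h. Without replicate 1, 73 fell, without the block 53, and in the libraries labelled EIF2A 72 of 74. Ndufa4, a subunit tied to cytochrome c oxidase (chromosome 6, 11900292 to 11907497), was at 181, 321, 318 and 310.5 CPM at 0 h, 124, 156, 164 and 152 CPM at 1 h and 56.1, 63.8, 62.3 and 59.5 CPM at 3 h. It fell in both steps (-0.91, then -1.29 ± 0.11, adjusted p = 3.61e-05), and 3 h lay below 1 h in every library. Uqcrh of complex III (-0.82 ± 0.053), Cox7b (-0.65 ± 0.044) and Cox7a2 (-0.64 ± 0.040) of complex IV and Sdhd of complex II (-0.52 ± 0.038) followed. Cytosolic ribosomal proteins fell for 73 of 78 members and rose for 1 (median -0.268), with Rps21 at -0.38 ± 0.041 and Rpl11 at -0.38 ± 0.042. Without the block 14 fell. These lists hold short transcripts, with a median exonic length of 1756 and 1775.5 bases against 4415 over all genes. After a trend on length was removed their medians were -0.271 and -0.209. Ribosomal protein genes have many processed pseudogenes that can take part of their reads.

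Proteasome subunits fell for 25 of 31 members and rose for none (median -0.212), in a course that differed by subunit. The core particle genes Psma2 (-0.43 ± 0.044) and Psmb4 (-0.34 ± 0.036) fell, and Psmd2 of the regulatory particle rose early and came back (0.29, then -0.24 ± 0.038). Psmd13, also of the regulatory particle, had no early rise without replicate 1 and fell in both steps (-0.11, then -0.36). Without the block 17 proteasome genes fell. Genes of glutathione and thioredoxin metabolism under NRF2 fell for 24 of 31 members and rose for 2, with Prdx1 (-0.57 ± 0.039), Txn1 (-0.51 ± 0.043) and Nqo1 (-0.53 ± 0.043) lower. Hmox1, the heme oxygenase (-0.23, then 0.64 ± 0.058), and Slc7a11, which is on the ISR list too, were the members that rose. Glycolysis and hypoxia genes fell for 19 of 25 and rose for 2 (median -0.489). The glycolytic enzymes Pgam1 (-0.83 ± 0.089), Pgk1 (-0.60 ± 0.047), Aldoc (-0.76 ± 0.068) and Gapdh (-0.49 ± 0.045) and the regulators Pfkfb3 (-0.86 ± 0.28) and Ankrd37 (-1.01 ± 0.20) were lower, and Ndufa4l2, a hypoxia target, was higher (1.36 ± 0.22). Without the block 4 glycolysis and hypoxia genes and 15 NRF2 genes fell.

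Replication-dependent histones rose with the highest median of the lists, with 46 of 50 tested members higher, 45 of them by at least 1.5-fold, none lower and a median of 1.38. Hist1h1d, a linker histone, was at 6.70, 7.51, 6.28 and 6.37 CPM at 0 h, 21.1, 27.5, 31.6 and 27.9 CPM at 1 h and 76.7, 109, 119 and 120.1 CPM at 3 h, rising by 2.01 and then by 1.97 ± 0.068 with no overlap. Hist1h1e (2.23 ± 0.10), Hist1h2ac (2.22 ± 0.13), Hist1h3i (1.88 ± 0.12) and Hist1h1b (1.84 ± 0.12) were alike. Without replicate 1, 47 of 53 rose and 1 fell, without the block 39 rose, and in the libraries labelled EIF2A 46 of 48 rose. These mRNAs end in a stem-loop and mostly lack a poly(A) tail, and the libraries were made from poly(A) RNA, so more transcript and more of it with a tail cannot be told apart. Members are near-identical copies between which counting can split reads.

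Cell cycle genes differed by phase, and their counts stand beside 27% of all genes higher and 27.9% lower. Genes of DNA replication and S phase rose for 17 of 28 members and fell for 2, by small steps such as Cdc6, a licensing factor (0.61 ± 0.060), Cdt1 (0.51 ± 0.044) and Mcm10 (0.50 ± 0.051). Genes of G2 and mitosis fell for 22 of 28 and rose for none (median -0.217), and 11 of them reverted from an early rise. Ccnf (-0.84 ± 0.075), Cenpf, a kinetochore protein (-0.43 ± 0.043), Cdk1 (-0.37 ± 0.040), Plk1 (0.32, then -0.31 ± 0.047) and Mki67 (0.39, then -0.26 ± 0.035) were among those lower. Without the block 11 S phase genes rose and 15 G2/M genes fell, and in the libraries labelled EIF2A 17 of 28 and 18 of 28 did.

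Clock genes rose for 10 of 18 members and fell for 2, beside 27% and 27.9% of all genes. The repressor Ciart was at 7.52, 8.01, 9.90 and 8.40 CPM at 0 h, 8.55, 15.1, 15.2 and 13.6 CPM at 1 h and 36.8, 43.6, 44.2 and 45.8 CPM at 3 h, with no overlap from 1 h to 3 h (1.71 ± 0.080, adjusted p = 2.14e-12). Nr1d1, which codes for REV-ERBalpha, was at 17.7, 19.9, 18.4 and 19.4 CPM at 1 h and 57.9, 50.3, 54.3 and 51.7 CPM at 3 h and rose by 1.505 ± 0.060. Arntl, the gene of BMAL1 (1.13 ± 0.079), Nfil3 (1.00 ± 0.073) and Cry2 (0.68 ± 0.054) rose as well. In the libraries labelled EIF2A 12 of 18 members rose, beside 25% of all genes there. Without the block 5 rose, beside 1484 of all 13540 genes. Txnip, an arrestin-family inhibitor of thioredoxin that glucose induces in beta cells, was at 24.4, 41.2, 39.1 and 40.3 CPM at 0 h, 38.8, 115, 116 and 108 CPM at 1 h and 134, 206, 205 and 204 CPM at 3 h; it grew from 1.33 by 1.06 ± 0.16, and by 0.86 without replicate 1. Of 7 Txnip and arrestin-domain genes 5 rose and none fell, beside 27% and 27.9% of all genes.

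Genes of ribosome biogenesis and snoRNA hosts rose more often than they fell, beside 27% of all genes higher and 27.9% lower. Of 36 ribosome biogenesis genes 23 rose and 2 fell (median 0.195), and 18 were growing upward, with Noc3l (0.59 ± 0.065) and Gnl3 (0.47 ± 0.052) in front, and without the block 8 rose. Of 14 host genes of small nucleolar RNAs 8 rose and 2 fell, and 6 were growing upward. Snhg1 was at 45.5, 44.7, 41.5 and 41.8 CPM at 0 h, 83.1, 122, 122 and 99.9 CPM at 1 h and 169.7, 210.2, 202 and 169.7 CPM at 3 h. Its rise of 1.29 at 1 h was followed by 0.82 ± 0.081. Snhg12 (0.80 ± 0.10) and Snhg17 (0.89 ± 0.062) took the same course. Host transcripts of this kind are known to be degraded by nonsense-mediated decay as they are translated.

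Several lists moved both ways, and their counts stand beside 27% of all genes higher and 27.9% lower. Heat shock, lysosome and ER to Golgi genes fell more often than they rose. Cytosolic heat shock genes rose for 4 of 22 members and fell for 11, 6 of them after an early rise. Genes of lysosome, autophagy and TFEB rose for 5 of 29 and fell for 17, and ER to Golgi traffic for 2 and 15 of 30, with a median of -0.0965 that was 0.0144 with library totals. Translation factors rose for 8 of 40 and fell for 14 (median -0.0261, and 0.0853 with library totals), and interferon response genes for 6 and 6 of 21 (median -0.0373, and 0.0761 with library totals). Cholesterol genes rose for 8 of 29 and fell for 4, and without replicate 1 for 6 and 10; their median of 0.00642 was -0.00243 with DESeq2 factors. Genes that beta cells normally keep off rose for 1 of 11 and fell for 3.

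The leading genes of the remaining courses were as follows. Late rises were led by Stard5, a sterol carrier, at 6.19, 8.53, 8.44 and 7.94 CPM at 1 h and 11.5, 17.4, 18.7 and 16.5 CPM at 3 h after no early change (0.019, then 1.04 ± 0.078). Smad9 (0.88 ± 0.070), Mknk1, a kinase of eIF4E (0.83 ± 0.056), Sh2d3c (0.80 ± 0.076) and Clic4 (0.75 ± 0.068) followed. Late falls were led by Npnt, a matrix protein, at 6.69, 13.6, 14.6 and 13.5 CPM at 1 h and 3.08, 5.98, 6.59 and 6.26 CPM at 3 h (-0.018, then -1.14 ± 0.086), and by Sertad3 (-0.98 ± 0.11), Pcdhb20 (-0.85 ± 0.085), Fam83d (-0.82 ± 0.065) and Vasn (-0.79 ± 0.076). Held rises were led by Flrt3 (1.29 at 1 h, then 0.0054 ± 0.087), Mut, Fosl2, Cgn and Iars2. Cgn, a tight junction protein, was at 41.9, 29.2, 32.1 and 27.7 CPM at 0 h, 79.1, 61.4, 62.04 and 62.4 CPM at 1 h and 78.6, 60.3, 69.8 and 63.1 CPM at 3 h, so that the rise of the first hour stood still (0.037 ± 0.050). Held falls were led by Fam134c, an ER-phagy receptor (-0.74 at 1 h, then 0.029 ± 0.087), Rmnd5a, Cmtm4, Arhgap44 and Syt11. Without replicate 1 Rmnd5a and Fosl2 counted as reverting, and Sertad3, Pcdhb20 and Arhgap44 could not be placed. After an early fall, Ankrd11 (-0.44, then 0.70 ± 0.13), Snx18 (-0.12, then 0.68 ± 0.045) and Hmox1 came back up. After an early rise, Gsn (0.19, then -0.78 ± 0.074), Crtac1 (0.53, then -0.86 ± 0.11) and Opn5 (0.43, then -0.87 ± 0.11) ended below 0 h, as C2cd4a did.

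Whether the step from 1 h to 3 h differs between the construct labels was tested as an interaction in all 24 libraries. No gene of 13761 was called by edgeR (0%), 967 had an unadjusted p under 0.05, and DESeq2 called 1 gene and had 786. Replicate 1, which goes against its labels by Eif2a, is part of that test, so the lack of calls cannot show that the steps were alike. With replicate 1 left out of both labels, 1331 of 13731 genes were called (9.69%), 694 with a higher step under the GFP label and 637 with a lower one. The genes named from that test were chosen after its values were seen. Sik1, a kinase that restrains CREB coactivators, was in replicates 2 to 4, on the scale of all 24 libraries, at 73.03, 72.7 and 65.8 CPM at 1 h and 58.6, 63.4 and 55.2 CPM at 3 h under the GFP label and at 31.1, 31.1 and 28.2 CPM at 1 h and 5.71, 4.04 and 4.61 CPM at 3 h under the EIF2A label, a difference of 2.42 ± 0.11. Nr4a1 was at 511, 514 and 486 CPM at 1 h and 266, 272 and 294 CPM at 3 h under the GFP label and at 179.7, 179 and 195 CPM at 1 h and 19.9, 23.99 and 26.4 CPM at 3 h under the other (2.14 ± 0.086). Nr4a3 (1.93 ± 0.14), Crem, a CREB relative (1.30 ± 0.089), and the growth factor receptor gene Igf1r (1.00 ± 0.066) also differed. Cited2, a transcriptional coregulator, differed the other way, at 179, 174 and 178 CPM at 1 h and 170.5, 170.4 and 179.5 CPM at 3 h against 103, 101 and 99.7 CPM at 1 h and 203, 201 and 195 CPM at 3 h (-0.99 ± 0.053). Over all 4 replicates the same differences were 1.18 ± 0.51 for Sik1, 1.35 ± 0.57 for Nr4a1 and -0.56 ± 0.22 for Cited2, and none was called. In replicates 2 to 4, Sik1 and Nr4a1 thus fell less under the GFP label than under the EIF2A label. These libraries also differed in other ways. Reads without a feature held 10.91 to 12.52% under the GFP label at 1 h and 3 h and 13.29 to 15.39% under the EIF2A label. Effects of the plasmid and of other differences between the 2 sets of libraries cannot be told apart.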

How the data were processed

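RNA of MIN6 cells was sequenced from poly(A)-selected stranded libraries, and the deposited table gives raw counts per gene for 24 libraries, made by the authors. Per the submitters' processing notes bcl2fastq and STAR were used with mm10. For the counter, the annotation and the strand setting: not given in the sources used here. Rows for reads without a feature held 10.73 to 12.52% of reads in the 8 libraries at 1 h and 3 h, and ambiguous reads 0.5264 to 0.5924%; both were left out.

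Counts of the 12 libraries labelled GFP were fitted with edgeR 4.0.16 (R 4.3.3) by the quasi-likelihood test with TMM scaling, the default filter (minimum count 10, 13540 of 24421 genes tested) and the replicate number as a block. Benjamini-Hochberg adjustment covered all genes tested. The block was set in the design, from the numbers in the column names. Deviations from the mean of each time correlated between libraries of 1 number (r = 0.937, 0.812, 0.811 and 0.814 over 10275 genes). Replicate 1 enters these means, so r of replicates 2 to 4 also holds their shared distance from it and cannot show pairing. Replicates 2 and 3 did not correlate best with their own number. Among replicates 2 to 4 alone r was 0.451, 0.0991 and 0.521, and replicate 3 did not correlate best with its own. In simulated counts for 3 h against 1 h (13474 genes), 85% of 1.5-fold and 95% of 2-fold changes were recovered. Every replicate was given the same step there, whereas replicate 1 stood apart for some genes in the data. False calls are not reported here. Members and lists were chosen with earlier results of these data known. Named genes are the 12 highest and 12 lowest of at least 5 CPM that moved alike in 4 pairs, the 5 leading genes of each class and 4 of each list, beside fixed genes; other names were chosen after their values were seen. Promoters were taken from RefSeq tables of GRCm38.p6. DESeq2 1.42.0, other scalings and filters, and left-out libraries were tried as alternatives.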

Additional observations from a re-analysis of the deposited data

Results flagged for a closer look

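In 26 of the 182 genes named above, the change from 1 h to 3 h in 1 replicate stood apart from the other 3, with a gap to the nearest of them that took a share of the range of all 4 above Dixon's 95% critical value. Chance flags about 1 in 20 groups. Replicate 1 was the one apart in 25 of these genes.

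The share of the range taken by the gap was highest for Atf3 (0.990), Slc6a9 (0.948), Isl1 (0.930), Mthfd2 (0.923), Pfkfb3 (0.914), Dusp5 (0.910), Slc16a3 (0.907) and Fosl2 (0.899). It was lower for Arntl (0.898), Txnip (0.896), Fgf21 (0.892), Foxa2 (0.891), Hist1h4i (0.891), Fosb (0.888), Cdc6 (0.886), Atf5 (0.884), Slc7a11 (0.878), and for Igf1r (0.878), Cited2 (0.873), Pcsk1 (0.856), Myc (0.851), Scg2 (0.847), Mknk1 (0.840), Ccnf (0.836) and Zfp36 (0.830). In Flrt3 it was replicate 2 (0.847).

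Atf3 changed on the log2 scale by 2.36 in replicate 1 and 1.73, 1.73 and 1.73 in replicates 2 to 4, more in replicate 1. For Slc6a9 the changes were 0.594 in replicate 1 and 1.86, 1.89 and 1.82 in replicates 2 to 4. Isl1 was at -0.422 in replicate 1 and -0.517, -0.522 and -0.515 in replicates 2 to 4, and Foxa2 at -0.072 in replicate 1 and -0.529, -0.528 and -0.479 in replicates 2 to 4. In each of these 3 the change of replicate 1 was the smallest in size.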

How the results depend on the processing

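Without the replicate block 1484 genes rose and 1388 fell from 1 h to 3 h, growing genes numbered 646 and 447, reverting 99 and 24, held 243 and 252, and late 221 and 270. Early genes of the EIF2A label then turned back for 5.33% of rises and 1.44% of falls, and 35.6% of falls went on. With replicate 1 left out and no block the counts were 3535 and 3604. Library totals gave 5589 and 2283 genes, 1109 growing downward, 344 and 606 reverting, 1545 and 526 late, and shares of 10.6%, 20.2% and 35.8% for early rises that fell, early falls that rose and early falls that fell. DESeq2 gave 164 genes that fell and reverted, and 1 gene with a difference between labels above 0. No filter gave 4 and 3 such genes above and below. A bound of 0.15 log2 gave 316 and 380 held and 281 and 420 late genes.

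Leaving out each replicate or single library gave 2969 to 3907 higher and 3159 to 4010 lower genes. Growing genes ranged over 1318 to 2034 and 1325 to 1991, reverting over 365 to 730 and 116 to 431, held over 585 to 854 and 655 to 983, and late over 650 to 959 and 834 to 1005. Early shares ranged over 46.7 to 54.1%, 12.3 to 21.9%, 3.75 to 14.2% and 49.6 to 56.9%. The difference between labels gave 0 to 694 genes above and 0 to 637 below, highest without replicate 1. Of 166 named genes called with the block, 56 were not called without it (adjusted p 0.0577 to 0.826 in edgeR): Aldoc, Atf4, Atf5, Bax, Calr, Canx, Chgb, Crtac1, Dnajb9, Dnajc3, Dusp5, Dusp6, Egr1, Egr3, Ero1l, G6pc2, Gapdh, Gcg, Gsn, Hgsnat, Hmox1, Hsp90b1, Hspa5, Icam1, Igf1r, Ins1, Jun, Kars, Lfng, Myc, Neurod1, Nkx2-2, Nqo1, Nr4a1, Nr4a2, Opn5, Pcsk2, Pdia4, Pdia5, Pdia6, Pgam1, Pgk1, Qars, Rpl11, Rps21, Scg5, Sik1, Slc16a3, Slc2a2, Smad9, Spry4, Tmem27, Tnfaip3, Ucn3, Vasn and Xbp1. None of the named genes that were called changed direction under the alternatives run. List medians near 0 changed sign under other scalings, as given with each list. Some also did so without replicate 1. That of immediate early genes was -0.00134 beside 0.0724 with it, and that of ER-associated degradation 0.000192 beside -0.0613. For p53 targets it was 0.0091 beside -0.0454, and for cholesterol genes -0.0348 beside 0.00642.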
